A study of Arabidopsis thaliana with 9 samples.

Results

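The core cell cycle genes of Arabidopsis thaliana were read from RNA of early heart embryos: 10 A-type, 9 B-type and 10 D-type cyclins, 5 cyclin-dependent kinases (CDKs), 7 KIP-RELATED PROTEIN (KRP) inhibitors and the kinase WEE1. These 42 genes, a list of loci drawn up by gene family, were taken from the 33603 genes of the deposited tables, and all 42 are annotated in RefSeq. Each of 9 libraries was made by Smart-seq2 from 20 dissected embryos, 3 for each of 3 genotypes, and kallisto had given every transcript an estimated count and a TPM, a level scaled to library size and corrected for transcript length. The first genotype was Col FRI, an active FRIGIDA allele in the Col-0 background, for which the mother plants had 6 weeks of cold as seedlings. The second was 35S::FCA, a Col-0 transgenic in which the constitutive 35S promoter of cauliflower mosaic virus drives FCA. The third was Col-0, the wild type, which lacks active FRIGIDA. The effect of the allele and that of the mother plants' cold cannot be told apart, since cold is recorded for no other genotype.

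Cell division in plants is driven by CDKs that act only when bound to a cyclin. D-type cyclins with CDKA act at the entry into the cycle by phosphorylating the retinoblastoma protein RBR1, which frees E2F factors to switch on DNA replication genes. A-type cyclins act from S phase into mitosis, and B-type cyclins with the plant-specific CDKB kinases act at mitosis, after which the anaphase-promoting complex (APC/C) has the mitotic cyclins destroyed. KRP proteins bind and inhibit cyclin-CDK complexes, and WEE1 slows CDK activity when DNA replication is disturbed. In the heart embryo, dividing cells build the cotyledons and the root and shoot poles. Embryos at this stage are not synchronised, so that a transcript made only at mitosis is measured as an average over dividing and resting cells. In such bulk samples, fewer cells that make a transcript and less of it per cell cannot be told apart.

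Libraries held 15166826 to 18768286 estimated counts in Col FRI, 17996274 to 25847613 among 35S::FCA libraries and 20372634 to 24659741 among those of Col-0. Organelle transcripts took 19.5 to 20.8% of TPM in Col FRI, 15.8 to 17.4% among 35S::FCA libraries and 11.9 to 22.8% among those of Col-0, where replicate 3 was the highest. The 3 Col FRI libraries differed little beyond counting noise. Their pairwise chi-square statistic over genes, for which counting noise alone gives about 1, had a median of 1.15 to 1.56, against 2.85 to 12.9 between 35S::FCA libraries and 6.63 to 17.2 between Col-0 libraries. The labels call all of them biological replicates, but whether each pool came from separate plants is not given in the sources used here, and p-values measure only the spread between these libraries. Tests were therefore repeated with the 3 Col FRI libraries summed as 1. They were also repeated without Col-0 replicate 3 and 35S::FCA replicate 1, which stand apart from their groups by the chi-square statistic. Both alternatives were chosen after seeing the data. The 5 embryo markers, of which 4 averaged at least 1 TPM in each genotype, summed to 195 to 203 TPM in Col FRI, 209 to 276 TPM among 35S::FCA libraries and 183 to 217 TPM among those of Col-0. The fifth, DRN, was at 0 in all Col FRI libraries. The 8 endosperm markers summed to 2.98 to 3.31 TPM in Col FRI, 2.53 to 3.04 TPM among 35S::FCA libraries and 1.85 to 5.05 TPM among those of Col-0, with IKU2 at 0 in all libraries of Col FRI and Col-0. The 7 seed coat markers summed to 11.0 to 12.9 TPM in Col FRI, 12.8 to 17.5 TPM among 35S::FCA libraries and 12.0 to 14.8 TPM among those of Col-0. The part of other tissues in the results below was not tested. For organelle reads, every member called in edgeR below kept its call in a fit on nuclear genes alone.

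Transcript levels differed widely among members of each class. Over the 9 libraries 22 of the 42 genes averaged at least 10 TPM and 2 averaged under 1 TPM, with a median of 11.5 TPM. Mean levels of the D-type cyclins ran from 1.92 to 140 TPM, while the 5 CDKs all lay between 20.8 and 50.8 TPM. B-type cyclins ranged between 3.17 and 56.7 TPM, A-type cyclins between 0.0142 and 28.7 TPM, and KRPs between 0.253 and 58.5 TPM. Of the 2 genes at the bottom, the tandem A-type cyclin AT1G47220 (CYCA3;3) had at most 1 count in any library and the inhibitor KRP2 (AT3G50630) had 1 to 11. Both fell below the filter on low counts, so that 40 members were tested and no fold is given for these. Counts of 39 members were whole numbers in every library within 0.02, as they are where no read is divided between loci. The exceptions were CYCB1;2 (all 9 libraries), CYCA3;4 (6 libraries) and CYCB2;3 (3 libraries), whose counts depend partly on how kallisto divided shared reads.

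**Figure D1:**
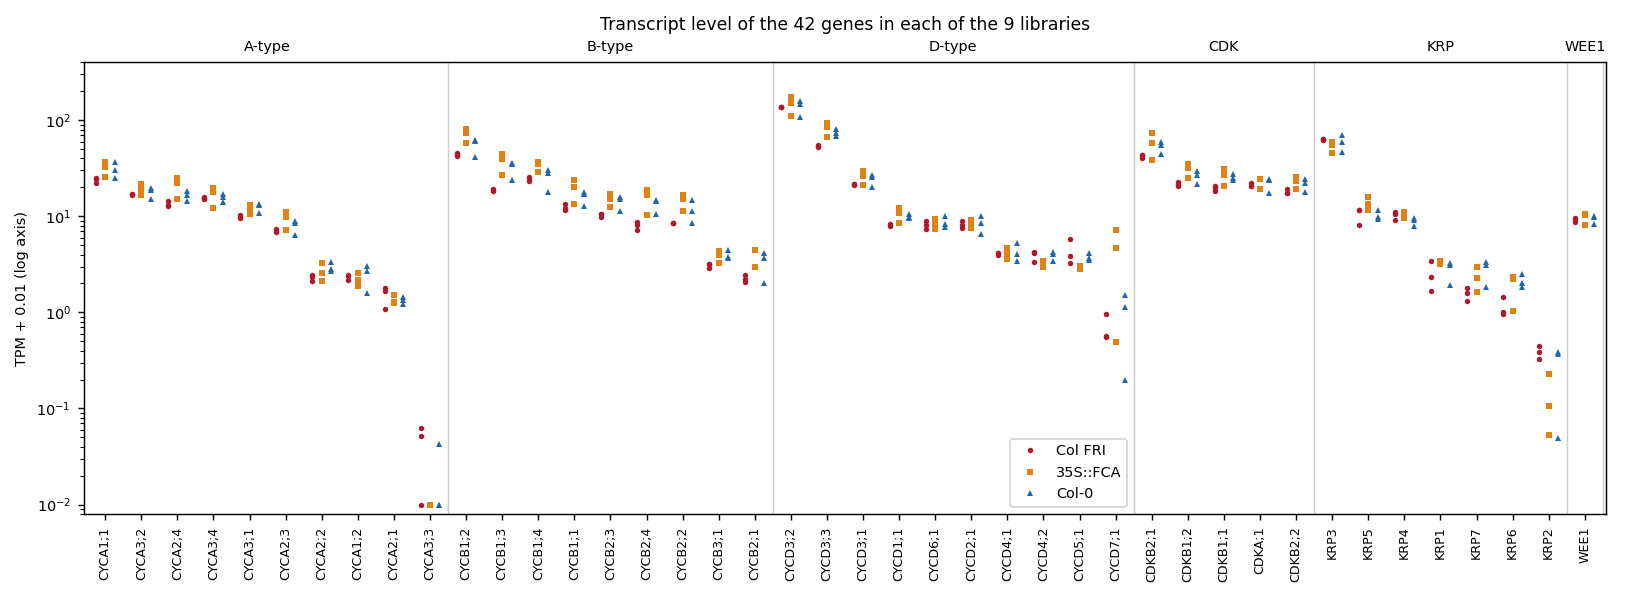
TPM of each of the 42 genes (log axis, 0.01 added) in every library, by class and by falling mean level, with Col FRI, 35S::FCA and Col-0 side by side for each gene. The D-type cyclin CYCD3;2 stands highest at 107 to 176 TPM and AT1G47220 is at or near 0 throughout.

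The comparison of Col FRI with Col-0 asks which cell cycle genes differ when FRIGIDA is active and the mother plants were vernalized. Of the 40 members tested, 6 were lower in Col FRI embryos and none was higher, at a Benjamini-Hochberg adjusted p under 0.05 over all 18585 genes in edgeR's quasi-likelihood test. Among all genes 7.22% were called lower and 6.04% higher. Those 6 comprised 3 B-type cyclins, 1 A-type cyclin, 1 D-type cyclin and 1 CDKB kinase, all lowered by less than 2-fold. No KRP passed, nor did WEE1. The median log2 fold change was -0.20 over the 40 members and -0.01 over all genes, and by class it was -0.37 for B-type cyclins, -0.20 for CDKs, -0.10 for A-type cyclins, -0.04 for KRPs and -0.02 for D-type cyclins. For the empty higher side, 2 members had an unadjusted p under 0.05 in edgeR, and DESeq2 and limma called none. The stricter rule of an adjusted p under 0.001 and over 2-fold, which 0.183% of genes met, was met by no member in edgeR, DESeq2 or limma. Of the markers tested none passed in edgeR, also at an unadjusted p under 0.05. Their median was -0.02 for 4 embryo markers, 0.07 for 5 endosperm markers and -0.28 for 4 seed coat markers.

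How many members pass depended on the libraries. Shares of all genes are not given here for these alternative fits, so whether the members changed more than all genes is not shown. Without Col-0 replicate 3 the count of lower members was 11, without 35S::FCA replicate 1 it was 9, without Col FRI replicate 2 or 3 it was 3, and without both libraries that stand apart it was 16. With the Col FRI libraries summed as 1, and with limma on log2 TPM, it was 0.

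Against 35S::FCA, the genotype with the opposite action on the flowering repressor FLC, Col FRI embryos had 10 members lower and 1 higher. The shares among all genes were 5.92% lower and 7.0% higher. The 10 lower members comprised 7 of the 9 B-type cyclins, CYCA2;4, a D-type cyclin and a CDKB kinase, and the higher one was the inhibitor KRP3. Median log2 fold changes were -0.54 for B-type cyclins, -0.25 for CDKs, -0.29 for KRPs, -0.07 for A-type cyclins and 0.08 for D-type cyclins, beside -0.24 over the 40 members and -0.01 over all genes. In the same comparison the 4 embryo markers tested were all below 0, with a median of -0.26 and PLT1 called lower (-0.56, edgeR adjusted p = 0.039), as were the 4 seed coat markers tested, with a median of -0.21 and none called. The 5 endosperm markers tested ran from -0.54 to 0.94, with a median of -0.03 and none called. The part of all these markers in the members' values was not tested. All 9 B-type cyclins had a fold change below 0 here, and 8 of 9 did so against Col-0, but both comparisons rest on the same Col FRI libraries. The stricter rule was met by 0.56% of genes and by no member, in edgeR, DESeq2 or limma. For the alternative fits that follow, shares of all genes are again not given. Counts of lower members were 6 without 35S::FCA replicate 3, 16 without Col-0 replicate 3, 18 without both libraries that stand apart, and 0 with the Col FRI libraries summed. The higher call of KRP3 was lost without 35S::FCA replicate 3, without Col FRI replicate 1 or 3, with the libraries summed and with limma. AT4G37630 was also called higher without Col FRI replicate 3. Without Col-0 replicate 3, KRP2 passed the filter through Col FRI libraries alone and was called higher. It had 6 to 9 counts in Col FRI and 1 to 6 in 35S::FCA, so that call carries no weight.

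Between 35S::FCA and Col-0, whose labels differ in the transgene, edgeR called no member in either direction. Here 1.03% of all genes were called lower and 0.49% higher, and 0.00538% met the stricter rule. At an unadjusted p under 0.05, 5 members were higher and 2 lower in 35S::FCA. DESeq2 called 1 higher, the B-type cyclin AT5G06150 (log2 fold change 0.31, adjusted p = 0.0357), and limma called none. The median over the 40 members was -0.01, as was that over all genes. Without 35S::FCA replicate 1, edgeR called 2 members higher, and without both libraries that stand apart it called 3 higher and 1 lower. Shares of all genes in these 2 fits are not given here.

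**Figure D2:**
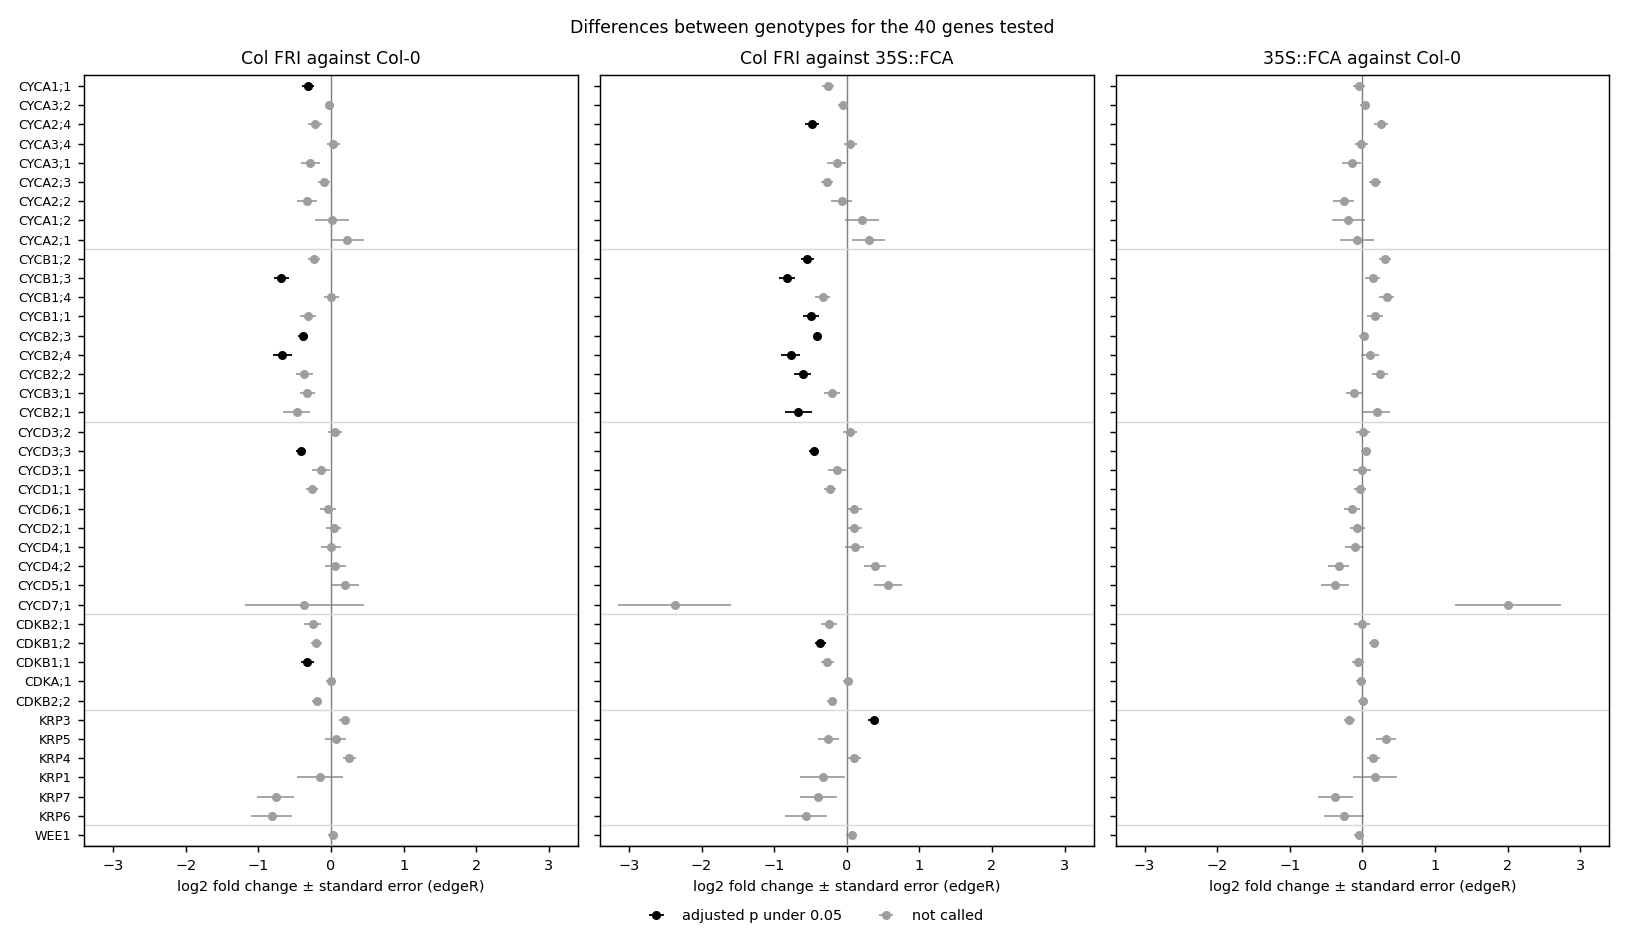
Log2 fold change (edgeR, ± standard error) of the 40 members tested, by class, for Col FRI against Col-0, Col FRI against 35S::FCA and 35S::FCA against Col-0, with black points for an adjusted p under 0.05. The B-type block lies left of 0 in both Col FRI panels, apart from CYCB1;4 at 0.00 in the first, with 3 and 7 black points, and no point is black in the panel of 35S::FCA against Col-0.

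Mitotic cyclin genes are known to carry the mitosis-specific activator (MSA) element, whose core AACGG is bound by MYB3R transcription factors. The 250 bases before each annotated gene start in RefSeq (build TAIR10.1) were searched on both strands for this core, whose reverse complement is CCGTT. Of 27444 protein-coding genes 20.6% held the core at least once and 0.736% held it at least 3 times. Among the 9 B-type cyclins 6 held it at least 3 times, all 6 of them within the 172 bases before the start. The other 3 held none. At least 1 core was found for 4 of 10 A-type cyclins, 1 of 10 D-type cyclins, 1 of 5 CDKs, 4 of 7 KRPs and WEE1, and of these only KRP1, with 6 matches, and KRP7, with 3, held 3 or more. A match is a description of the letters and not evidence of binding.

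The upstream stretches of 4 B-type cyclins are shown because they set called genes with several cores beside a called gene with none. Each holds the 200 bases before the gene start, 5′ to 3′ on the strand of the gene, with the MSA core in capitals. They lie at chr3:3627274-3627473 (minus strand), chr5:1861704-1861903 (minus), chr1:7137829-7138028 (minus) and chr1:28630790-28630989 (minus), in the order printed.
CYCB1;3: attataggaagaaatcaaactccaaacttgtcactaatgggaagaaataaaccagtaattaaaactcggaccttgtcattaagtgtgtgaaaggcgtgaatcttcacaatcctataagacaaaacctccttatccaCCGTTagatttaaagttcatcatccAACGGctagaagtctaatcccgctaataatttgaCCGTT
CYCB1;2: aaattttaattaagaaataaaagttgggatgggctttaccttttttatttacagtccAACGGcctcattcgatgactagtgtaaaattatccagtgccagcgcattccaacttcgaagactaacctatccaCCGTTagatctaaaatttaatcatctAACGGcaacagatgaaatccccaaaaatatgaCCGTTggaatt
CYCB2;3: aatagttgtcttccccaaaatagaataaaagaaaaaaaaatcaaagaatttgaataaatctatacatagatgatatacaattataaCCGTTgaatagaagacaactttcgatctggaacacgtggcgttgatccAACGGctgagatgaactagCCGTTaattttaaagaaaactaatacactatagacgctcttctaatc
CYCB2;4: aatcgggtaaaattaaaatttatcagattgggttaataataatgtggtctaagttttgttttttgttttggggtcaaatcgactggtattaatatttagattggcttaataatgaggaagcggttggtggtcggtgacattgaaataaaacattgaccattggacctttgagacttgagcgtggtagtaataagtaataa

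The first gene carries the core at -64, -39 and -5 from its start, the second at -143, -69, -43 and -11, and the third at -114, -66 and -47. The stretch of AT1G76310 has none. Its RefSeq model holds 2094 bases, against 1347 in the authors' index. The gene start may thus differ between them, and bases after the RefSeq start were not searched.

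**Figure D3:**
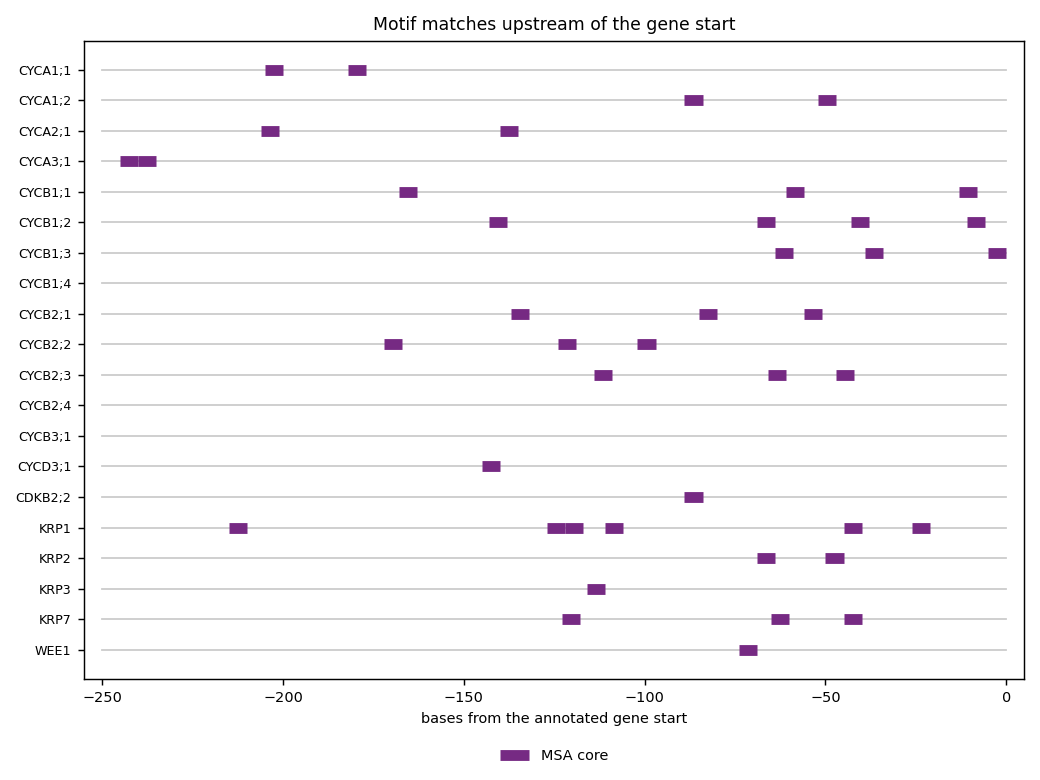
Position of MSA core matches (purple) in the 250 bases before the annotated gene start, for the 9 B-type cyclins and every other member with a match, with the gene start at 0. In 6 B-type cyclins 3 or 4 purple marks lie between -172 and the start, and 3 lines of that class are empty.

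Most of the calls fell among the B-type cyclins. In the values that follow, CPM are counts scaled to the TMM-corrected library size in edgeR, and each gene's libraries are given in replicate order. CYCB1;3 (AT3G11520, chr3:3625286-3627273), a mitotic cyclin of the CYCB1 group, had 40.6, 38.8 and 39.2 CPM in Col FRI, against 60.3, 76.5 and 72.9 CPM in 35S::FCA and 65.5, 69.2 and 55.4 CPM in Col-0. Every Col FRI library lay below every library of the other genotypes. The log2 fold change, given with its standard error (SE), was -0.68 against Col-0 (SE 0.106, adjusted p = 0.00453 by edgeR) and -0.82 against 35S::FCA (SE 0.106, adjusted p = 0.00117 by edgeR). This was the only member called against 35S::FCA in all but 1 of 20 alternatives, the exception being the summed Col FRI libraries (adjusted p = 0.132).

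CYCB2;4 (AT1G76310, chr1:28627694-28630789), a cyclin of the CYCB2 group, had 15.9, 13.3 and 14.9 CPM in Col FRI, against 20.3, 28.4 and 26.7 CPM in 35S::FCA and 23.6, 25.2 and 21.6 CPM in Col-0. Col FRI libraries were again the lowest, and 35S::FCA replicate 1 was the nearest to them. The fall was -0.67 on the log2 scale against Col-0 (SE 0.129, adjusted p = 0.0108 by edgeR) and -0.77 against 35S::FCA (SE 0.129, adjusted p = 0.00435 by edgeR). The call against Col-0 was lost without Col FRI replicate 2 or 3. Its paralogue CYCB2;3 (AT1G20610, chr1:7134659-7137828) had 27.1, 25.5 and 26.7 CPM in Col FRI, against 34.5, 36.1 and 34.3 CPM in 35S::FCA and 35.7, 35.5 and 32.7 CPM in Col-0. The 35S::FCA and Col-0 libraries overlapped and all of them exceeded those of Col FRI. Fold changes were -0.39 against Col-0 (SE 0.0669, adjusted p = 0.00683 by edgeR) and -0.40 against 35S::FCA (SE 0.0669, adjusted p = 0.00427 by edgeR).

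The most abundant B-type cyclin, CYCB1;2 (AT5G06150, chr5:1859279-1861703), reached 99.2, 107 and 104 CPM in Col FRI, against 145, 156 and 151 CPM in 35S::FCA and 128, 129 and 107 CPM in Col-0. Its 35S::FCA libraries were the highest of all, and Col-0 replicate 3 lay next to the Col FRI libraries. The comparison with 35S::FCA passed, at -0.54 (SE 0.0839, edgeR adjusted p = 0.00313). Against Col-0 the value was -0.23 (edgeR adjusted p = 0.0955), and -0.32 without Col-0 replicate 3 (edgeR adjusted p = 0.00733). CYCB1;1 (AT4G37490, chr4:17621886-17624308), whose reporter is widely used to mark cells in G2 and mitosis, had 25.7, 27.3 and 29.4 CPM in Col FRI, against 32.3, 43.4 and 39.8 CPM in 35S::FCA and 33.9, 37.0 and 31.6 CPM in Col-0. No Col FRI library overlapped the others. It fell against 35S::FCA (-0.49, SE 0.111, edgeR adjusted p = 0.018), while the value against Col-0 was -0.32 (edgeR adjusted p = 0.0889). The call was kept in 13 of 20 alternatives, and lost without 35S::FCA replicate 2 or 3 and without Col FRI replicate 1 or 2.

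The other cyclins of the CYCB2 group passed against 35S::FCA and not against Col-0. CYCB2;2 (AT4G35620, chr4:16901596-16904001) had 18.6, 18.6 and 18.2 CPM in Col FRI, against 26.1, 29.5 and 28.9 CPM in 35S::FCA and 28.5, 22.5 and 20.5 CPM in Col-0. The Col-0 libraries were spread widely, with replicate 3 close to Col FRI. Its fold changes were -0.61 against 35S::FCA (SE 0.116, adjusted p = 0.0086 by edgeR) and -0.37 against Col-0 (SE 0.116, adjusted p = 0.0618 by edgeR). The rarer CYCB2;1 (AT2G17620, chr2:7664055-7666522) had 5.51, 4.65 and 4.90 CPM in Col FRI, against 7.11, 8.12 and 8.68 CPM in 35S::FCA and 7.29, 8.57 and 5.0 CPM in Col-0. Col-0 replicate 3 fell inside the Col FRI range. It passed against 35S::FCA (-0.67, SE 0.189, edgeR adjusted p = 0.044), a call kept in 10 of 20 alternatives, and had a value of -0.47 against Col-0 (edgeR adjusted p = 0.125). Leaving out any Col FRI library, 35S::FCA replicate 2 or 3, or Col-0 replicate 1 ended the call.

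The other members of the class did not pass in any comparison. CYCB1;4 (AT2G26760) had 52.0, 54.1 and 56.3 CPM in Col FRI, against 69.5, 66.4 and 67.9 CPM in 35S::FCA and 59.5, 58.0 and 44.1 CPM in Col-0. It was the B-type cyclin with no sign of a lower level against Col-0, where its value was 0.00 (SE 0.103), and it was -0.33 against 35S::FCA (edgeR adjusted p = 0.0633). AT1G16330 (CYCB3;1), the lone member of its group, had values of -0.32 against Col-0 (edgeR adjusted p = 0.0759) and -0.21 against 35S::FCA (edgeR adjusted p = 0.228). Set beside the upstream motifs, 6 of the 9 B-type cyclins hold at least 3 MSA cores. They include 2 of the 3 called against Col-0 and 6 of the 7 called against 35S::FCA. The remaining called gene, AT1G76310, has no core in the 250 bases before its RefSeq start, which may differ from that of the authors' index. KRP1 and KRP7 also hold at least 3 cores and were not called. The share called among all genes with at least 3 cores was not computed, so no link between motif and calls is drawn.

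**Figure D4:**
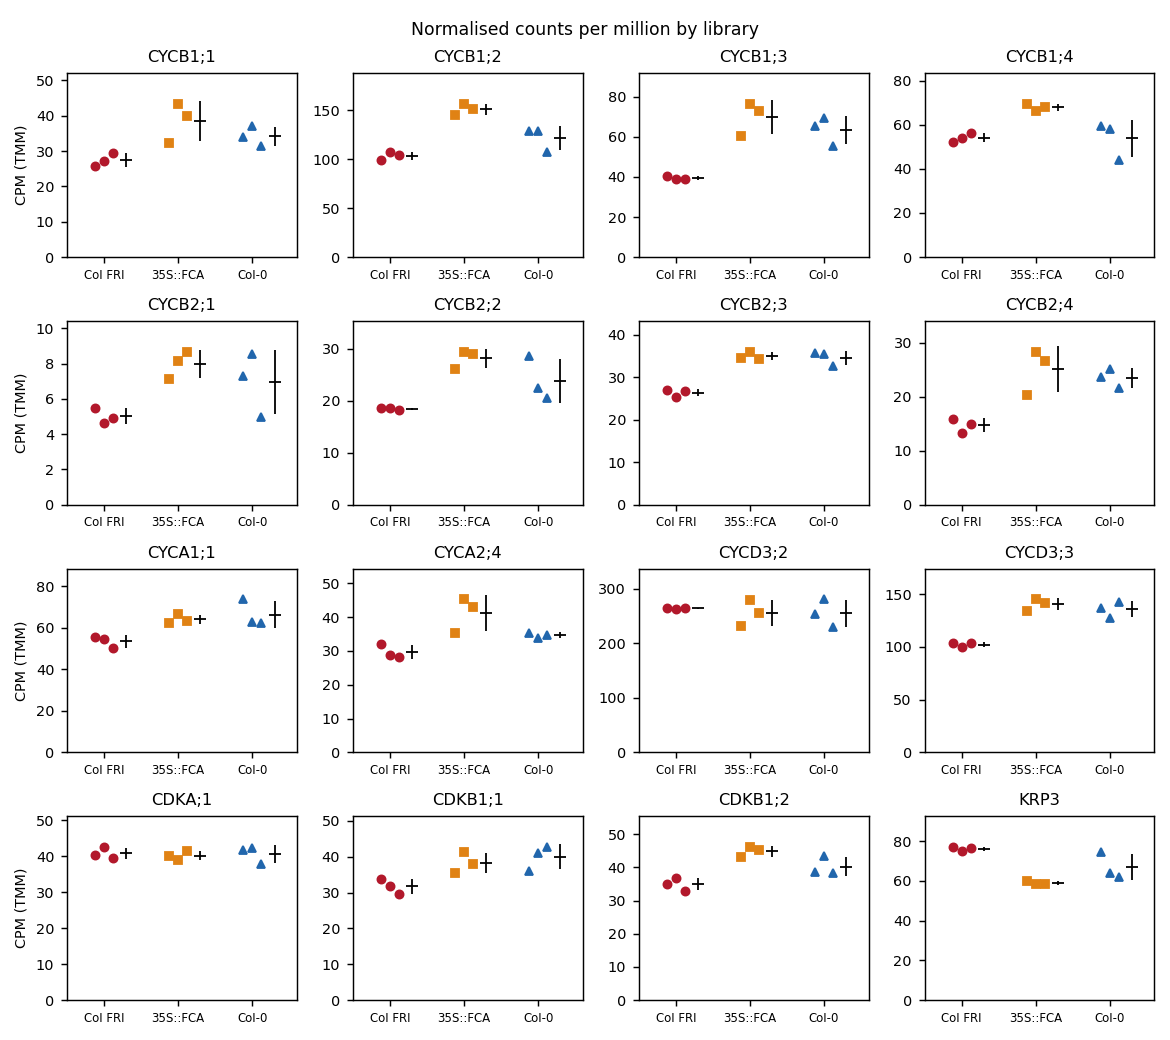
TMM-normalised counts (CPM) in each library for 16 members, with Col FRI, 35S::FCA and Col-0 from left to right, coloured points for libraries and black bars for the mean ± SD (n = 3). In the first 2 rows the Col FRI points lie lowest for all B-type cyclins shown except AT2G26760 (top right) and AT2G17620 (start of the second row), where a Col-0 library lies as low.

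As a class, the B-type cyclins took a smaller share of the members' transcripts in Col FRI. Their part of the summed TPM of the 42 genes, a value that does not move with organelle reads, was 18.6, 19.0 and 19.3% in Col FRI, against 24.0, 24.2 and 24.5% in 35S::FCA and 22.2, 22.6 and 19.8% in Col-0. All Col FRI libraries lay below the others, and Col-0 replicate 3 lay nearest to them. KRPs took 13.0, 12.4 and 13.0% in Col FRI, against 10.4, 9.26 and 9.65% in 35S::FCA and 11.4, 10.1 and 10.7% in Col-0. D-type cyclins took 35.5 to 36.1% in Col FRI, 33.4 to 34.0% among 35S::FCA libraries and 33.7 to 35.3% among those of Col-0. Shares of A-type cyclins and CDKs overlapped between all genotypes, at 12.9 to 14.0% and 17.3 to 18.9%. Shares sum to a fixed total, so that a lower one raises the rest, and they were not tested. On the TPM scale itself the B-type sum was 130, 132 and 135 in Col FRI, against 168, 248 and 224 in 35S::FCA and 198, 191 and 132 in Col-0. There the Col-0 libraries reached the Col FRI range through replicate 3.

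**Figure D5:**
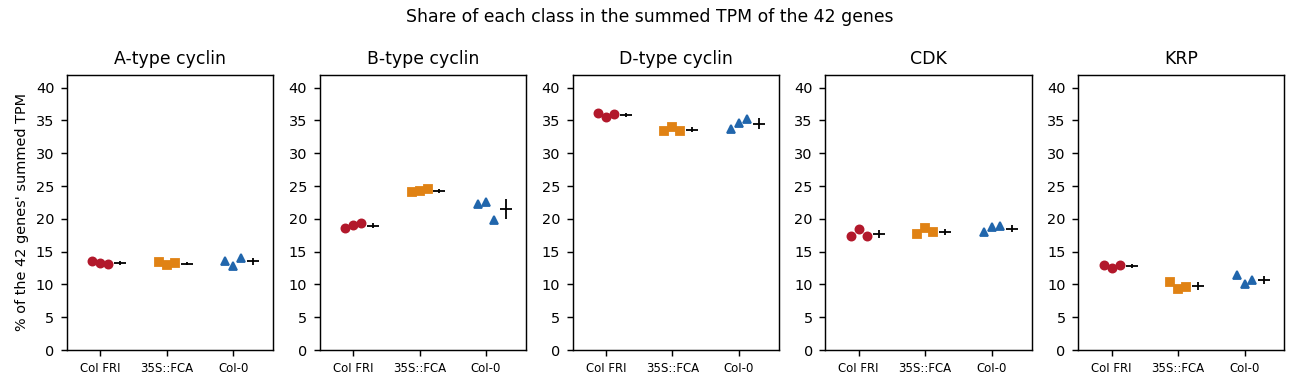
Share of each class in the summed TPM of the 42 genes (percent, axis from 0), with a point for each library and black bars for mean ± SD (n = 3), Col FRI left, 35S::FCA in the middle and Col-0 right. The B-type share is 18.6 to 19.3% in Col FRI, below all 6 other libraries, and the KRP share at 12.4 to 13.0% is above them.

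The 10 A-type cyclins gave 1 call against each genotype. CYCA1;1 (AT1G44110, chr1:16774765-16777352), the most abundant of the class and a mitotic cyclin, had 55.7, 54.3 and 50.1 CPM in Col FRI, against 62.2, 66.6 and 63.4 CPM in 35S::FCA and 73.7, 62.7 and 62.3 CPM in Col-0. The Col FRI libraries lay below all others by a narrow gap. The log2 fold change was -0.31 against Col-0 (SE 0.0821, adjusted p = 0.0343 by edgeR) and -0.26 against 35S::FCA (edgeR adjusted p = 0.0607). The first call was lost in 10 of 20 alternatives, among them those without any 1 of the Col FRI libraries, without Col-0 replicate 1 and without 35S::FCA replicate 3.

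CYCA2;4 (AT1G80370, chr1:30213705-30217102), the most abundant of the CYCA2 group, whose members are known to promote mitotic division over endoreduplication, had 32.0, 28.8 and 28.1 CPM in Col FRI, against 35.4, 45.3 and 43.0 CPM in 35S::FCA and 35.3, 33.8 and 34.8 CPM in Col-0. Replicates 2 and 3 of 35S::FCA stood above the rest, and replicate 1 of that genotype lay at the Col-0 level. It was called lower against 35S::FCA (-0.48, SE 0.0963, edgeR adjusted p = 0.011), with -0.22 against Col-0 (edgeR adjusted p = 0.151). Leaving out 35S::FCA replicate 3, or Col FRI replicate 2 or 3, ended the call.

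The CYCA3 group, expressed at the entry into S phase in plants, showed no difference that passed. Its most abundant member, CYCA3;2 (AT1G47210), had 34.3, 34.7 and 34.3 CPM in Col FRI, against 36.2, 36.4 and 34.8 CPM in 35S::FCA and 35.9, 35.0 and 34.3 CPM in Col-0. The values of Col FRI and Col-0 overlapped and the fold change between them was -0.03 (SE 0.0593). Of the 9 A-type cyclins tested, 6 had a fold change below 0 in each Col FRI comparison, and the range was -0.33 to 0.22 against Col-0 and -0.48 to 0.30 against 35S::FCA.

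Among the D-type cyclins, the CYCD3 group, which keeps plant cells in the mitotic cycle, held the 2 most abundant of all 42 genes, of which 1 was called lower and the other was not called. CYCD3;3 (AT3G50070, chr3:18565134-18566834) had 103, 99.8 and 104 CPM in Col FRI, against 134, 145 and 142 CPM in 35S::FCA and 137, 128 and 143 CPM in Col-0. Every library of the other genotypes lay well above the Col FRI libraries. The fall was -0.41 against Col-0 (SE 0.0684, adjusted p = 0.00616 by edgeR) and -0.46 against 35S::FCA (SE 0.0684, adjusted p = 0.0027 by edgeR). CYCD3;2 (AT5G67260, chr5:26836139-26839597), first in level, had 265, 263 and 265 CPM in Col FRI, against 232, 279 and 257 CPM in 35S::FCA and 254, 281 and 230 CPM in Col-0. The Col FRI libraries lay in the middle of the others, and the fold changes were 0.05 against both (SE 0.0939 each, edgeR adjusted p = 0.749 against Col-0 and 0.773 against 35S::FCA). The difference between the responses of these paralogues was not tested. In TPM, which corrects for length, AT5G67260 averaged 137 ± 0.773 in Col FRI, against 146 ± 32.4 in 35S::FCA and 138 ± 27.0 in Col-0, and AT3G50070 averaged 54.2 ± 1.18 in Col FRI, against 81.8 ± 14.1 in 35S::FCA and 74.4 ± 6.94 in Col-0 (mean ± SD, 3 libraries per genotype).

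The remaining D-type cyclins did not pass at the gene level. Their fold changes ran from -0.37 to 0.19 against Col-0, and CYCD6;1 (AT4G03270), a cyclin of formative root divisions that lies 1.16 Mb from FRI on chromosome 4, had -0.04. The nearest to passing was CYCD1;1 (AT1G70210), with -0.26 against Col-0 (edgeR adjusted p = 0.06) and -0.23 against 35S::FCA (edgeR adjusted p = 0.0916). The third CYCD3 gene, AT4G34160 (CYCD3;1), had -0.14 against Col-0 (edgeR adjusted p = 0.505). CYCD7;1 (AT5G02110), named after its values were seen, is a cyclin of the stomatal lineage. It had 17, 13 and 25 estimated counts in Col FRI, against 14, 254 and 183 in 35S::FCA and 43, 55 and 6 in Col-0. The libraries with few counts included 35S::FCA replicate 1 and Col-0 replicate 3, and the genotypes overlapped. The value was 2.00 for 35S::FCA against Col-0 (SE 0.733, adjusted p = 0.179 by edgeR), and 2.48 without 35S::FCA replicate 1 (edgeR adjusted p = 0.036). For Col FRI against 35S::FCA it was -2.37 (edgeR adjusted p = 0.0725), and -2.86 without that library (edgeR adjusted p = 0.00883).

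Isoform usage could be tested for 7 members with at least 2 transcript models past the filter. With edgeR's diffSpliceDGE none was called for Col FRI against Col-0, where 1.88% of 3679 genes were called, and none for 35S::FCA against Col-0, where 0.435% were. At an unadjusted p under 0.05 these counts were 0 and 1. Col FRI against 35S::FCA gave 1 call, with 2.12% called among all genes. It was AT4G37630 (CYCD5;1), whose second model had 2.47, 0.961 and 1.25 TPM in Col FRI, against 0.281, 0.0301 and 0.185 TPM in 35S::FCA and 1.01, 0.743 and 1.03 TPM in Col-0. The 35S::FCA libraries were the lowest, at levels near 0. The first model had 3.31, 2.90 and 1.98 TPM in Col FRI, against 2.61, 2.97 and 2.62 TPM in 35S::FCA and 3.08, 2.97 and 2.47 TPM in Col-0, and these overlapped. The edgeR adjusted p was 0.0487, and among the fits that left out 1 library it stayed under 0.05 only without 35S::FCA replicate 1 (0.0459), reaching 0.148 at most.

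Of the 5 CDKs, 1 was called lower in each Col FRI comparison, a different gene each time. CDKA;1 (AT3G48750), the kinase that works throughout the cycle, had 40.3, 42.6 and 39.5 CPM in Col FRI, against 40.1, 39.0 and 41.3 CPM in 35S::FCA and 41.7, 42.3 and 37.9 CPM in Col-0. The 3 genotypes overlapped fully, with fold changes of 0.00 against Col-0 and 0.02 against 35S::FCA (SE 0.0688 each). All 4 CDKB genes had fold changes below 0 in both Col FRI comparisons, and the difference between CDKA and CDKB genes was not tested. CDKB1;1 (AT3G54180, chr3:20059671-20061488) had 33.8, 31.9 and 29.7 CPM in Col FRI, against 35.5, 41.2 and 37.9 CPM in 35S::FCA and 36.1, 41.1 and 42.7 CPM in Col-0. Replicate 1 of each genotype lay close together at the edge between the groups. It was -0.33 against Col-0 (SE 0.0897, adjusted p = 0.0385 by edgeR), a call kept in 9 of 20 alternatives, and -0.27 against 35S::FCA (edgeR adjusted p = 0.0769). Leaving out any Col FRI library, Col-0 replicate 2 or 3, or 35S::FCA replicate 3 ended it.

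Its paralogue CDKB1;2 (AT2G38620, chr2:16152473-16154086) had 35.0, 36.7 and 33.0 CPM in Col FRI, against 43.0, 46.2 and 45.4 CPM in 35S::FCA and 38.6, 43.4 and 38.4 CPM in Col-0. The 35S::FCA libraries were the highest, with 1 Col-0 library inside their range. The call was against 35S::FCA (-0.36, SE 0.0748, edgeR adjusted p = 0.0119), with -0.20 against Col-0 (edgeR adjusted p = 0.0995). It was kept in 14 of 20 alternatives, and lost without 35S::FCA replicate 3 and without Col FRI replicate 1 or 3. The most abundant CDK, CDKB2;1 (AT1G76540), had 74.5, 80.0 and 79.1 CPM in Col FRI, against 75.9, 109 and 92.2 CPM in 35S::FCA and 95.0, 92.9 and 90.5 CPM in Col-0. The Col-0 libraries all exceeded Col FRI but 35S::FCA replicate 1 did not, and the value of -0.25 passed neither against Col-0 (edgeR adjusted p = 0.158) nor against 35S::FCA (edgeR adjusted p = 0.169).

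Among the KRP inhibitors only KRP3 (AT5G48820, chr5:19792270-19794480), by far the most abundant, was called. It had 77.1, 75.1 and 76.5 CPM in Col FRI, against 59.8, 58.6 and 58.3 CPM in 35S::FCA and 74.5, 64.2 and 62.0 CPM in Col-0. Col FRI lay highest and 35S::FCA lowest, each within a narrow range, and Col-0 between them. The log2 fold change was 0.37 against 35S::FCA (SE 0.0757, adjusted p = 0.0114 by edgeR) and 0.19 against Col-0 (SE 0.0755, adjusted p = 0.126 by edgeR). The low KRP6 and KRP7, at 17 to 67 and 21 to 75 counts in a library, had the largest negative values of the class against Col-0, -0.82 (edgeR adjusted p = 0.0869) and -0.76 (edgeR adjusted p = 0.0741), which did not pass. KRP4 (AT2G32710) had 0.25 against Col-0 (edgeR adjusted p = 0.0976) and KRP5 (AT3G24810) had 0.07 (edgeR adjusted p = 0.796). KRP1, with its 6 MSA cores, had -0.15 (edgeR adjusted p = 0.784). WEE1 (AT1G02970) had 24.3, 25.0 and 22.7 CPM in Col FRI, against 22.6, 22.5 and 23.8 CPM in 35S::FCA and 22.9, 23.9 and 24.2 CPM in Col-0. These overlapped throughout, with a fold change of 0.02 against Col-0 (SE 0.0699, adjusted p = 0.853 by edgeR).

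A list of 38 further cell cycle genes, of which 36 were tested, shows the setting of these values. For them, fits with a library left out, the Col FRI libraries summed or a replicate block are not reported here. Against Col-0, 8 were lower in Col FRI and none higher, with a median of -0.24, beside 7.22% lower and 6.04% higher among all genes. At an unadjusted p under 0.05 in edgeR 1 was higher, and DESeq2 and limma called none higher. Limma on log2 TPM called 2 of 34 lower. The 8 genes lower in edgeR included 3 APC/C activators, which mark cyclins for destruction. These were CCS52B (-0.89, edgeR adjusted p = 0.00108), CDC20.2 (-0.75, edgeR adjusted p = 0.00108) and CDC20.1 (-0.68, edgeR adjusted p = 0.00302). The CDC20 pair share reads in every library and cannot be fully separated. CCS52B, for example, had 19.6, 20.6 and 20.3 CPM in Col FRI, against 34.8, 42.1 and 37.3 CPM in 35S::FCA and 39.9, 32.9 and 39.3 CPM in Col-0, so that each Col FRI library was far below the rest. The others were the Aurora kinases AUR1 (-0.38) and AUR2 (-0.30), the cytokinesis syntaxin KNOLLE (-0.34), and the E2F family members E2FC (-0.50) and DEL2 (-0.79).

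Against 35S::FCA 10 of the 36 were lower and none higher in Col FRI, with a median of -0.19, beside 5.92% lower and 7.0% higher among all genes. They were the same 3 APC/C activators (-0.94 for CDC20.1, -0.92 for CCS52B and -0.83 for CDC20.2), AUR1 (-0.54), AUR2 (-0.34), KNOLLE (-0.42), the cytokinesis kinesin HINKEL (-0.43), E2FC (-0.38), and the transcription factors MYB3R3 (-0.53) and MYB3R4 (-0.32), of the family that binds the MSA core. At an unadjusted p under 0.05 in edgeR none was higher, nor did DESeq2 or limma call any higher, while limma called 4 of 34 lower. Between 35S::FCA and Col-0 none of the 36 was called by edgeR, DESeq2 or limma, with 2 higher and 0 lower at an unadjusted p under 0.05 in edgeR. None of the 7 CKS and CDK-activating kinase genes, nor any of the 7 SIAMESE-RELATED inhibitors tested, passed in any comparison.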

How the data were processed

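RNA of 9 libraries was measured by Smart-seq2 with Tn5 tagmentation. The authors mapped reads with kallisto and deposited, for each transcript, an estimated count and a TPM per library, and the submitters' processing notes name TAIR10 as the build. The kallisto version is not given in the sources used here. Transcript values were summed per gene, and summed estimated counts were rounded to whole numbers. The errors given cover the spread between libraries only. Groups and replicate numbers came from the sample labels.

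Genes passing filterByExpr (18585) were normalised by TMM and tested with edgeR 4.0.16 (quasi-likelihood, all 9 libraries in 1 fit, R 4.3.3), with Benjamini-Hochberg adjustment over all genes and a threshold of 0.05. Alternatives used DESeq2 1.42.0, limma 3.58.1 on log2(TPM + 1) or log2(TPM + 0.1) for genes with a mean of at least 1 TPM, other size factors, no filter, nuclear genes only, 2 genotypes at a time, a replicate block and each library left out. Summing the Col FRI libraries, and leaving out both libraries that stand apart, were added after seeing the data. Isoform usage was tested with diffSpliceDGE. Scripts were tested on simulated data. Promoter sequences and gene positions came from RefSeq (TAIR10.1), whose transcript models can differ from those of the authors' index.

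The members and lists were chosen with earlier results of these data known. Genes named in full were those called in any comparison, the most abundant member of each class and of each sub-family of 3 or more, WEE1 and CDKA;1, and others named were chosen after their values were seen.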

Additional observations from a re-analysis of the deposited data

How the results depend on the processing

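Every called member kept its direction in all 20 alternatives, but the number of calls varied. Calls among all genes in these alternatives are not given here, so whether the members varied more than all genes is not shown. For Col FRI against Col-0, the 6 lower members became 0 with limma on either pseudocount, 0 under the stricter rule, 15 at an adjusted p under 0.1, 0 with the Col FRI libraries summed as 1, 16 without both libraries that stand apart, and 3 to 11 when each library was left out. The 0 higher members became 1 at an adjusted p under 0.1 and 0 to 1 when each was left out. For Col FRI against 35S::FCA, the 10 lower members became 3 and 1 with limma on log2(TPM + 1) and log2(TPM + 0.1), 16 with only these 2 genotypes, 0 under the stricter rule, 17 at an adjusted p under 0.1, 0 with the libraries summed, 18 without both libraries, and 6 to 16 when each was left out. The 1 higher member became 0 with limma on either pseudocount, 0 under the stricter rule, 2 at an adjusted p under 0.1, 0 with the libraries summed, 2 without both libraries, and 0 to 2 when each was left out. For 35S::FCA against Col-0, the 0 higher members became 1 with DESeq2, 1 at an adjusted p under 0.1, 3 without both libraries and 0 to 2 when each was left out, and the 0 lower became 1 without both libraries. The 1 isoform call became 0 without the filter, 0 with the replicate block, and 0 to 1 when each library was left out. The cause of these changes was not tested, except that the summed fit has a lone Col FRI sample, assumed to vary like the other genotypes. On the TPM scale the median of all genes for Col FRI against 35S::FCA moved to -0.11 and -0.13, with the members at -0.33 and -0.35.

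With the replicate block, 4 members were lower in Col FRI against Col-0 and 9 against 35S::FCA. The calls lost were CYCA1;1 (adjusted p = 0.0509) and CDKB1;1 (0.0641) against Col-0 and CYCB2;1 (0.0685) against 35S::FCA, all by edgeR. Deviations of libraries with the same number correlated at -0.113 to 0.266 over 9 pairs, and those with different numbers at -0.326 to 0.269 over 18. These ranges overlap, but they cannot show whether libraries with the same number were prepared together. Low counts limit KRP2, KRP6, KRP7 and CYCD7;1.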
